A study of Mus musculus with 2 samples.

Results

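Retinoic acid is made from vitamin A and acts as a signal between cells. Retinaldehyde is oxidised to retinoic acid by the retinaldehyde dehydrogenases, encoded by Aldh1a1 and Aldh1a2. Inside the cell it is bound by the carrier Crabp1, broken down by the cytochrome P450 Cyp26b1, or passed to the nuclear receptors RARα, RARβ and RARγ (Rara, Rarb, Rarg), which bind DNA as pairs with the retinoid X receptors (Rxra, Rxrb). In the foetal mouse testis, breakdown by CYP26B1 keeps retinoic acid low around the male germ cells, and the meiosis inducer Stra8 is a retinoic acid target. The values below describe 5-hydroxymethylcytosine (5hmC), the base that TET enzymes form by oxidising methylated cytosine, at these 9 genes.

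The data come from wild-type prospermatogonia, which are germ cells of the male foetus in mitotic arrest, taken at E17.5. Per the labels and the design text, a pool of 30000 cells of more than 1 embryo gave the DNA, and 50 ng of it, sheared, was put through 5hmC-Seal, in which 5hmC is tagged with a modified sugar and biotin and pulled down on streptavidin. The samples are a captured library and an input library, which is the same DNA not put over streptavidin; each is of batch 1. The captured library has a list of 108395 broad peaks on mouse build mm10, and no file of the input library was used here. There is no replicate, so no test was possible and each fold enrichment stands without an error of its own. The peak list holds no reads, so the depth is unknown, and it cannot show whether the DNA came from germ cells alone. A weak peak can reflect 5hmC in few cells or little 5hmC in each cell, and these cannot be told apart.

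A peak was counted for a gene when it overlapped the gene's mm10 span, widened by 10 kb at each end, by at least 1 bp. This gave 77 peaks, of which 57 touched a gene span and 20 lay in the flanks, 11 upstream and 9 downstream. Each peak carries the authors' fold enrichment over the background that the peak caller assumed, and a −log10 q, which grows as a peak becomes harder to account for by background. The members' median fold was 3.43, beside 3.35 over all peaks. Of the 77 peaks, 40 (51.9%) had a −log10 q under 2, beside 56.2% of all peaks, and 11 (14.3%, exact Clopper-Pearson 95% interval 7.35 to 24.1) had one of 5 or more, beside 11.9% of all peaks. Of these 11 peaks, 9 were in Rarb. Peaks of a gene are not independent, and the interval covers counting error only. The peak nearest to the 10 kb limit from inside lay 9.91 kb from Rxrb and had a fold of 6.71. The nearest one beyond it lay 11.3 kb from Crabp1 and had a fold of 3.10, and the 14 peaks from 10 to 20 kb had a median fold of 3.21.

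**Figure D1:**
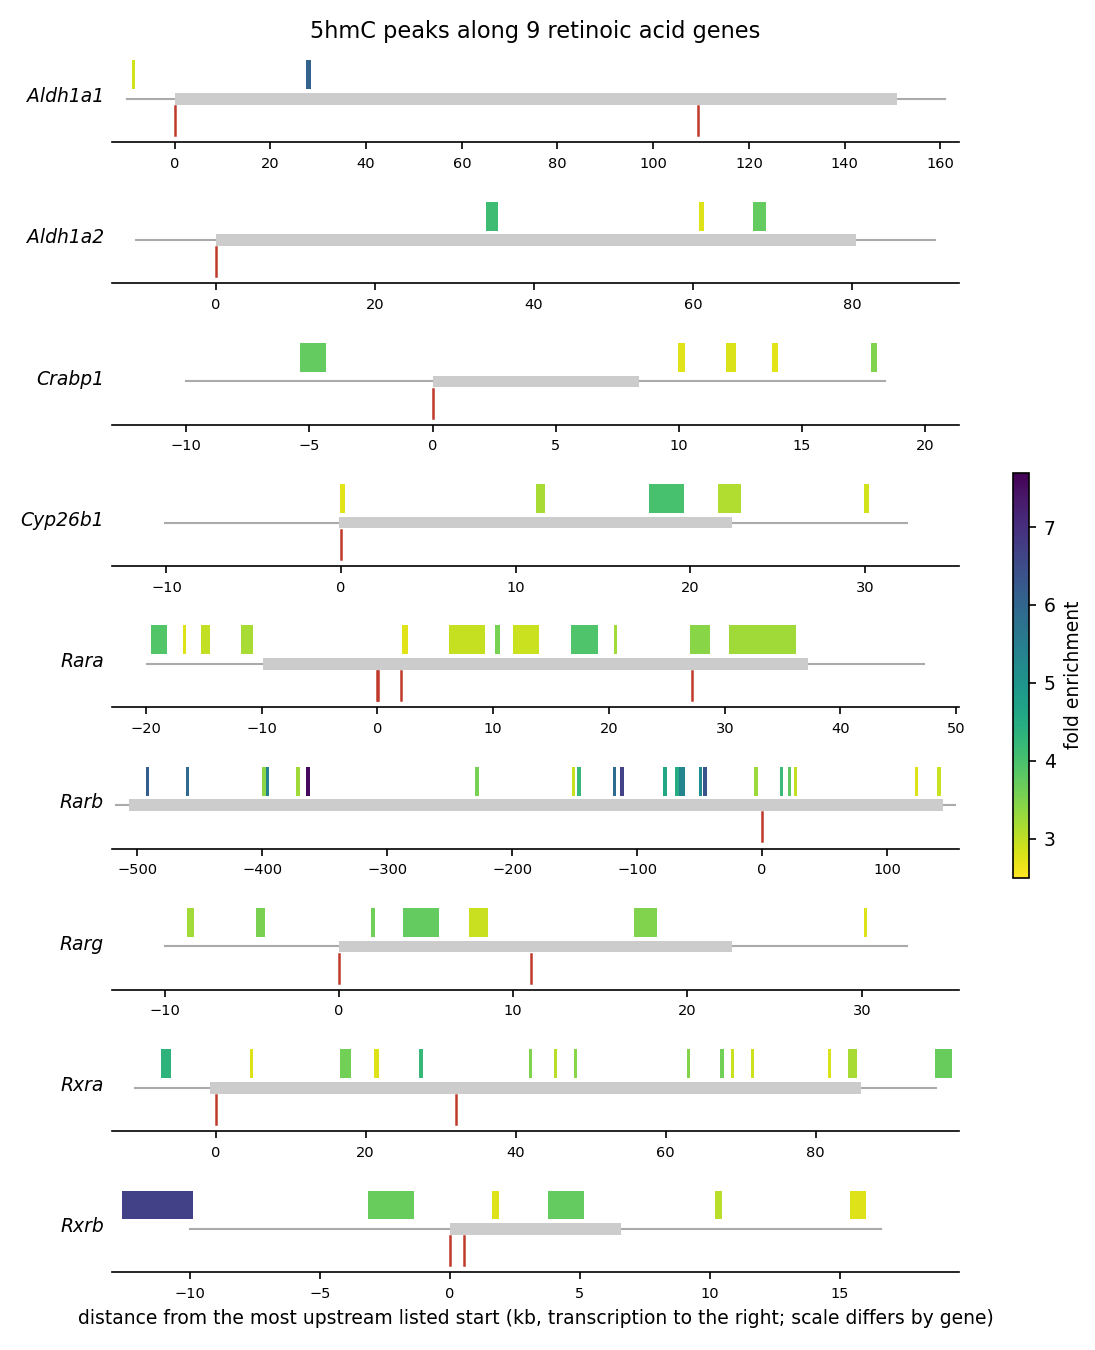
Peaks along the 9 genes, drawn by distance in kb from the most upstream transcription start listed for each gene, with transcription to the right and a scale of its own for each gene. Grey bars are gene spans, red ticks are listed starts, and boxes are peaks coloured by fold enrichment; narrow peaks are widened to be visible. The darkest boxes, of fold over 5, lie in the upstream part of Rarb, at 27.5 kb past the upstream start of Aldh1a1 and in the upstream flank of Rxrb.

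Every one of the 9 genes had at least 1 peak, a common state, since 78.7% of 21779 protein-coding genes did. A peak with a −log10 q of 5 or more was found at 3 of the 9 genes, Rarb, Rxrb and Aldh1a1, beside 16.3% of protein-coding genes. The one counted for Rxrb lay in the flank, 9.91 kb from the gene and on its neighbour Ring1. By raw count, not adjusted for length, the receptor genes held most of the peaks, 41 at the 3 RAR genes and 21 at the 2 RXR genes. Of the RAR peaks, 22 were in Rarb, which has the longest window, 671 kb. Its density, 0.328 per 10 kb, was under the protein-coding median of 0.520. The synthesis, breakdown and carrier genes had 5 peaks in each role. Gene lengths differ widely between the members, so counts are given below beside those of protein-coding genes whose span was within a factor of 1.25 of the member's.

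Transcription starts were mostly without peaks. RefSeq's table for GRCm38.p6, the same build as mm10, lists 16 starts for the 9 genes, each with a window from 250 bases before to 50 after the start. A peak overlapped 2 of these 16 windows, beside 4.01% of 21263 windows of protein-coding genes, and both peaks were weak. The first is the start of Cyp26b1, crossed by a peak of 288 bp and fold 2.74 (−log10 q 1.02). The second is the most downstream of the 4 starts of Rara, crossed by a peak of 1807 bp and fold 3.42 (−log10 q 1.91). The 1 listed start of Rarb had no peak, and its nearest one lay 4.18 kb upstream at fold 3.27. These 3 are shown because they hold the only overlaps of a start window and a peak, and the only pair of receptor half-elements found in these windows. Each line gives the 250 bases before the start. Capitals mark the bases inside the peak for Cyp26b1 (74 bases; chr6:84593811-84594060, minus strand) and Rara (202 bases; chr11:98964622-98964871, plus strand). For Rarb (chr14:16575477-16575726, minus strand) they mark the direct repeat.
Cyp26b1: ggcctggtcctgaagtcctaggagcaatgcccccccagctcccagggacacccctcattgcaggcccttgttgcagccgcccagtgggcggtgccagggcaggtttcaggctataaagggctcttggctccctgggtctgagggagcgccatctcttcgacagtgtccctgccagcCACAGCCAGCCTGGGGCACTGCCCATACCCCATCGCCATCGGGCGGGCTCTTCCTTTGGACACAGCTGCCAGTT
Rara: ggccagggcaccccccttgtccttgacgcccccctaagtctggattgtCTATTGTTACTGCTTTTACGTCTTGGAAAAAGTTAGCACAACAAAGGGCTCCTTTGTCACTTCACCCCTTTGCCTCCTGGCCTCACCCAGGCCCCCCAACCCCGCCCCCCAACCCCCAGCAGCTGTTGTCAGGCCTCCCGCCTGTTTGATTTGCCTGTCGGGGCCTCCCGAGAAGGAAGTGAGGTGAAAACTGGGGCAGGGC
Rarb: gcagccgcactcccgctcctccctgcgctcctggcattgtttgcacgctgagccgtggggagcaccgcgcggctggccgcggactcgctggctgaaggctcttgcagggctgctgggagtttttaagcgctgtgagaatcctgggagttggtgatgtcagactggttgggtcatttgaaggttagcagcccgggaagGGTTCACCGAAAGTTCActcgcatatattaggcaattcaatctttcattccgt

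The capitals of Rarb run from base -53 to base -37 before the start and hold 1 CpG, the base pair step at which most cytosine methylation is found in mammals. They are the direct repeat with a spacing of 5 bases to which RAR and RXR pairs are known to bind, and Rarb is a textbook target of retinoic acid. The search covered both strands of each 300-base window for the hexamer AGGTCA, or the hexamer AGTTCA, or the hexamer GGGTCA, or the hexamer GGTTCA, any of them followed by the same or another of them on the same strand after 1, 2 or 5 bases. No other member window held such a repeat. A spacing of 5 was found in 17 of the 21263 windows of protein-coding genes (0.0800%), a spacing of 2 in 0.0894% and a spacing of 1 in 0.183%. A match is a run of letters and not a measured binding site.

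Both windows with a peak were poor in CpG, with 9 at Cyp26b1 and 6 at Rara, and so were some without one, with 3 and 1 at the starts of Aldh1a1 and 1 at the downstream start of Rxra. The windows richest in CpG had no peak: 55 CpGs at the upstream start of Rxra, 50 at the start of Aldh1a2, and 47 and 37 at the starts of Rxrb. Over all protein-coding windows the median was 6 CpGs in those with a peak and 14 in those without. The distance from a listed start to the closest member peak had a median of 2.29 kb. It was 119 bp at the Rara start next upstream of the one with a peak. The peak at this distance, of fold 2.75, also lies on Gm46294, another protein-coding gene. The distance was 1.07 and 1.39 kb at the Rxrb starts and 34.0 kb at Aldh1a2. The farthest of the 16 was the downstream start of Aldh1a1, at 81.0 kb.

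**Figure D2:**
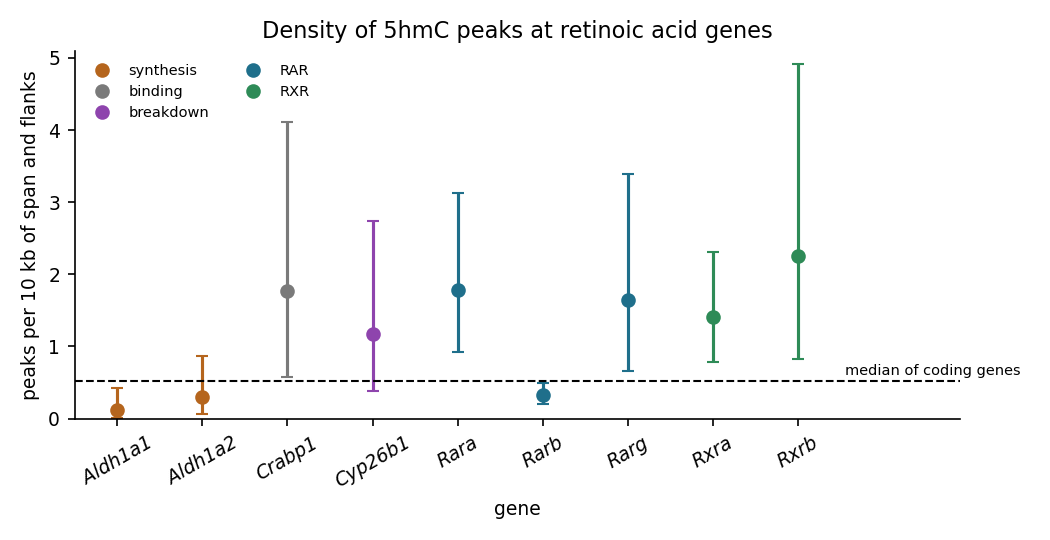
Peaks per 10 kb of span and flanks for each gene, coloured by role, with exact Poisson 95% intervals that cover counting error only. The dashed line is the median over protein-coding genes, 0.520; Aldh1a1, Aldh1a2 and Rarb lie below it and the other 6 genes above it.

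Of the synthesis genes, Aldh1a1 had few peaks for its length, and Aldh1a2 lay within the quartiles of genes of like length. Aldh1a1, on chromosome 19 from 20492583 to 20643463, had 2 peaks in a window of 171 kb, or 0.117 per 10 kb (exact Poisson 95% interval 0.0142 to 0.423). The 834 genes of like length had a median of 8 peaks, with quartiles of 4 and 14. The gene had 1 peak inside its span, from 20520114 to 20521008, and the remaining 122 kb downstream of that peak held none.

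That inside peak of Aldh1a1 was strong, with a fold of 6.07 and a −log10 q of 6.82. It also lies in E030003E18Rik, a long non-coding RNA gene that overlaps Aldh1a1, and the list does not say which of these genes it belongs to. The second Aldh1a1 peak, 8.43 kb upstream of the start, had a fold of 2.85.

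Aldh1a2, on chromosome 9 from 71215789 to 71296243, encodes the main retinoic acid producing enzyme of the early embryo. It had 3 peaks, all inside the gene, or 0.299 per 10 kb (0.0616 to 0.873), and genes of like length had a median of 6, with quartiles of 2.5 and 10. The 3 peaks had folds of 4.12, 2.77 and 3.76 in the order of transcription. The first lay 34.0 kb past the start and had a −log10 q of 3.25, and the last was the widest, at 1636 bp. Peaks covered 4.63% of the span, close to the 4.12% that was the median of genes of like length.

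Crabp1, on chromosome 9 from 54764748 to 54773110, had no peak within its span of 8.36 kb. The other 8 members had one, as did 61.6% of protein-coding genes. Its 5 peaks lay in the flanks, 1 upstream and 4 downstream. The upstream peak was the widest and the highest of the 5, at 1062 bp and fold 3.75, and ended 4.34 kb before the start. The downstream peaks were between 227 and 400 bp wide, with folds of 2.76, 2.80, 2.74 and 3.48. No other gene of the table overlapped any of the 5.

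Cyp26b1, on chromosome 6 from 84571414 to 84593908, had 5 peaks, 4 of them inside, and genes of like length had a median of 3. Peaks covered 16.0% of its span, beside a median of 4.36% in genes of like length. The highest and widest was 1998 bp long, with a fold of 4.01, and lay 17.6 kb past the start. A peak of 1310 bp and fold 3.12 crossed the 3′ end of the gene. The peak over the start, printed above, had the lowest fold of the 5, and no peak of Cyp26b1 reached a −log10 q of 3.

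The RAR genes differed from each other in the kind of peak they held. Rara and Rarg had closely spaced weak peaks that covered 34.8% and 20.9% of the span, and Rarb had widely spaced peaks that were often strong. Rara, on chromosome 11 from 98927800 to 98974942, had 12 peaks, or 1.79 per 10 kb (0.923 to 3.12), and genes of like length had a median of 4. Peaks covered 34.8% of its span, beside a median of 4.05% and an upper quartile of 9.37% in genes of like length. That was the largest covered share among the 9 members.

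The 8 Rara peaks inside the gene varied more in width than in fold. The widest, from 98968119 to 98973864, was 5.75 kb long and had a fold of 3.25 and a −log10 q of 1.69. Peaks of 3096 and 2224 bp had folds of 2.95 and 2.91, and the 3 narrow ones, of 520, 410 and 256 bp, had folds of 2.75, 3.56 and 3.22. The highest, 2335 bp long, had a fold of 3.92 and a −log10 q of 2.87, so no peak of Rara would be kept at a −log10 q of 3. Of the 4 upstream flank peaks, 3 lay on Cdc6, a gene of DNA replication licensing whose span ends 3.86 kb before Rara, with folds of 3.92, 2.78 and 2.98.

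Rarg, on chromosome 15 from 102234938 to 102257522, had 7 peaks, 4 of them inside, or 1.64 per 10 kb (0.661 to 3.39), and genes of like length had a median of 3. Peaks covered 20.9% of the span, beside 4.33% as the median of genes of like length. Folds ran from 2.77 to 3.74, and the highest peak was also the widest, at 2061 bp, 3.70 kb past the upstream start. The lowest lay downstream on Itgb7, an integrin gene, and the starts of Rarg had their nearest peaks at 1.84 and 2.45 kb.

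**Figure D3:**
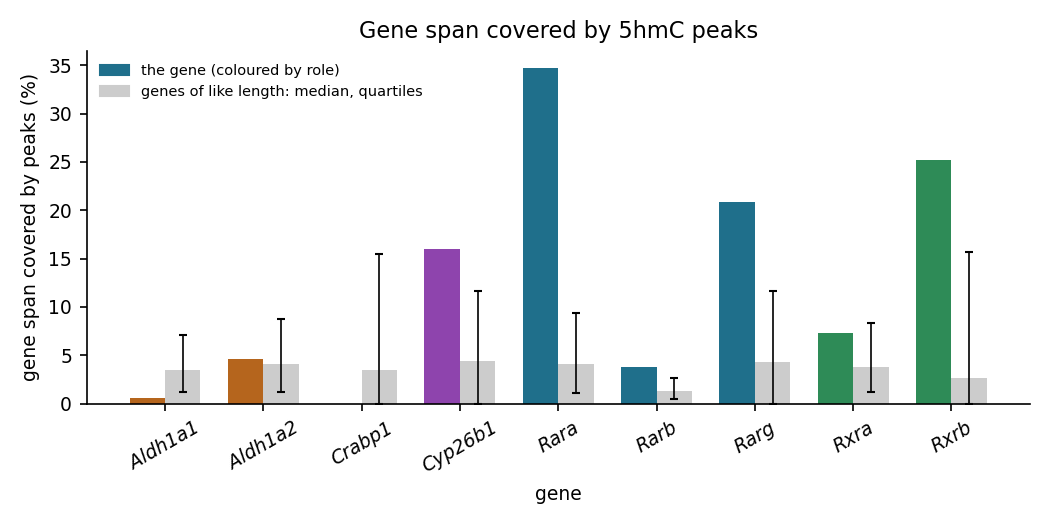
Share of the gene span, in percent, that lies in peaks. Coloured bars are the members, and the grey bar to the right of each is the median over protein-coding genes of like length, with their quartiles as error bars; Rara at 34.8%, Rxrb at 25.2% and Rarg at 20.9% were the highest, and Crabp1 was at 0%.

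Among the 9 members, Rarb held the peak with the highest fold and most of the strong peaks. Its span on chromosome 14 runs from 16430839 to 17082331, or 651 kb, and the listed start lies at 16575476. The span therefore reaches 507 kb upstream of that start and 145 kb downstream of it. No other Rarb start is listed, so the starts of any longer transcripts could not be placed. Upstream here means upstream of the listed start and still within the gene span. All 22 peaks lay inside the span, and none in the flanks. The density was 0.328 per 10 kb (0.205 to 0.496), under the median of protein-coding genes, and the count stood at the upper quartile of genes of like length (median 11, quartiles 5 and 22.5, 115 genes).

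The median fold was 4.36 over the 22 peaks of Rarb and 3.22 over the 55 other member peaks taken as a pool. Among single members, only Aldh1a1, with 2 peaks, had a higher median, 4.46. Of the 11 member peaks with a −log10 q of 5 or more, 9 were in Rarb. That is 40.9% of its peaks (exact 95% interval 20.7 to 63.6), beside 3.64% (0.443 to 12.5) of the other 55. Neighbouring peaks are not independent, and the intervals cover counting error only. Rarb is set apart here as the member with most of the strong peaks, so the contrast is no test of a difference.

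Taken as a pool, the peaks of other long genes were less often strong. In the 556 other protein-coding genes of 300 kb or more, 10.1% of 8314 peaks had a −log10 q of 5 or more. Their median number of such peaks was 1, with quartiles of 0 and 2. Rarb had 9, and 7 of the 556 genes had 9 or more, so the value is high but not particular to Rarb. Such a count also depends on how many peaks a gene has, 22 in Rarb beside a median of 10 in these genes. The share of strong peaks was not computed for each long gene. The median fold of a gene's peaks had a median of 3.34 over the 535 of these genes with a peak, and 110 genes had one at or above that of Rarb.

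Upstream and downstream of the listed start, Rarb peaks were about equally dense, at 3.35 and 3.46 per 100 kb, and differed in strength. The 17 upstream peaks had a median fold of 5.20 and included all 9 strong ones. The 5 downstream peaks had folds of 2.98, 3.81, 4.18, 2.77 and 2.92, and none was strong. A comparison of both sides was made after the values were seen and has no test.

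The strong upstream peaks are described in sets, whose limits followed no rule of spacing. A run of 7 peaks between 44.7 and 119 kb upstream of the start, picked out after the values were seen, spread over 73.8 kb and covered 13.8 kb of it. Its folds ran from 4.51 to 6.67, all above the median of all peaks, and 5 of the 7 were strong. The limits were drawn with these folds known, so the evenly high folds are no separate result. The next peak farther upstream, 146 kb from the start, had a fold of 4.22 and was not strong. The strong peaks of this run were from 16620192 to 16622143 (fold 6.32, −log10 q 7.40), from 16623442 to 16625663 (5.20, 5.13), from 16637176 to 16641589 (5.33, 5.44), from 16686633 to 16688125 (6.67, 8.38) and from 16692525 to 16694009 (5.90, 6.55). The one of fold 5.33 was the widest Rarb peak, at 4414 bp.

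A second set, also picked out after the values were seen, lay near the far end of the span. The highest peak of all 77, from 16938010 to 16939419, had a fold of 7.55 and a −log10 q of 10.5, and its near edge lay 363 kb upstream of the listed start. The near edges of the other strong peaks of this set stood at 396 kb (16971258 to 16971786, fold 5.41, −log10 q 5.38), 459 kb (17034843 to 17035495, fold 5.92, −log10 q 7.20) and 491 kb (17066891 to 17067274, fold 6.19, −log10 q 7.16). Weak peaks lay among them, at 371 kb with a fold of 3.24 and at 398 kb with a fold of 3.40. Between both sets lay other peaks that were not strong, with near edges at 146 kb (fold 4.22, −log10 q 3.19), 151 kb (fold 2.94) and 228 kb (fold 3.57). The longest stretch of the gene without a peak, 134 kb, ran from the last of these to the peak of fold 7.55. None of the 9 strong peaks overlapped another gene of the table.

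**Figure D4:**
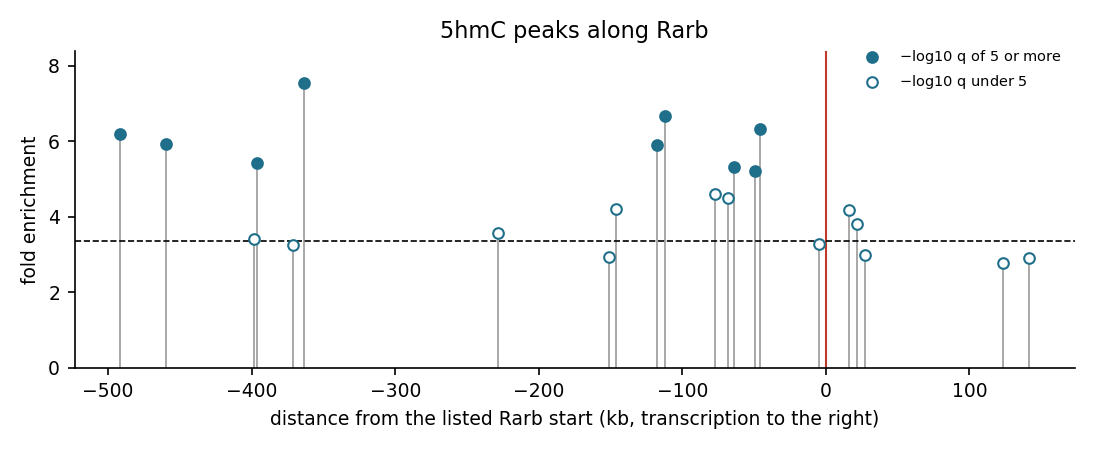
Fold enrichment of the 22 Rarb peaks against the distance of their midpoints from the listed start, in kb, with transcription to the right. Filled points have a −log10 q of 5 or more; the red line is the start and the dashed line the median of all peaks, 3.35, and all 9 filled points lie to the left of the start.

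The RXR genes encode partners of the RARs and of other nuclear receptors, and both were above the protein-coding median in peak density. Rxra, on chromosome 2 from 27676445 to 27763319, had 15 peaks, 13 of them inside, or 1.40 per 10 kb (0.786 to 2.31), and genes of like length had a median of 6. Its peaks were narrow, with a median width of 304 bp, beside 636 bp over all peaks, and covered 7.28% of the span. The highest, of fold 4.35 and −log10 q 3.42, lay in the upstream flank, 5997 bp before the start. The highest inside had a fold of 4.21 over 303 bp, and the widest, 2266 bp and fold 3.71, lay downstream of the gene.

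Rxrb, on chromosome 17 from 34031812 to 34038403, is the shortest member at 6.59 kb and lies among close neighbours. It had the highest density, 2.26 per 10 kb (0.828 to 4.91), with 6 peaks, beside a median of 2 in genes of like length. Inside the gene were 2 peaks, of fold 2.77 and 3.76, and peaks covered 25.2% of the span. The other 4 all lay on neighbouring genes. The strong one, from 34019183 to 34021902 with a fold of 6.71 and a −log10 q of 8.14, overlaps Ring1, the gene of a Polycomb protein, which ends 7.13 kb before Rxrb. The peak of fold 3.71 lies on Slc39a7, a zinc transporter gene 0.122 kb from Rxrb, and those of fold 3.07 and 2.77 lie on the collagen gene Col11a2.

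**Figure D5:**
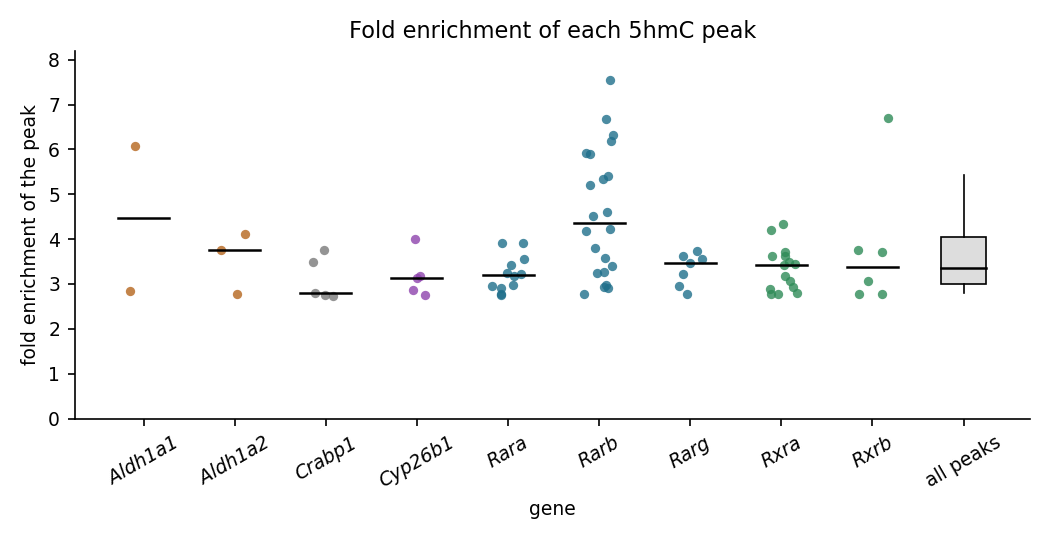
Fold enrichment of each of the 77 peaks by gene, with a line at the gene's median; at the right, a box of all 108395 peaks with its median and quartiles and whiskers at the percentiles 10 and 90. Rarb spreads up to 7.55, and outside Rarb only 1 peak of Aldh1a1 and 1 of Rxrb exceed the whisker at 5.43.

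The median member had 1.40 peaks per 10 kb and 7.28% of its span in peaks, beside 0.520 and 2.25% over all protein-coding genes, and 6 of the 9 members were above the first and 7 above the second. The protein-coding medians are over genes of all lengths and not of like length. At a −log10 q of at least 3 the member medians were 0.0585 and 0%, beside 0 and 0% over protein-coding genes. Among 21 other retinoid genes, 19 had a peak, beside 78.7% of protein-coding genes. Their median density was 0.726 per 10 kb, and their median share of the span covered was 1.59%. A strong peak was found at 1 of the 21, beside 16.3% of protein-coding genes. This gene, Rdh10, which makes retinaldehyde from retinol, had a fold of 7.60 (−log10 q 9.85) in a peak of 490 bp that lay 2.23 kb outside the span. The next highest folds were 4.74 at Ncor1, a corepressor of unliganded RARs, inside the gene, and 4.65 at Ncoa3, a coactivator, 4.15 kb outside the span.

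By role, all 3 genes of uptake and storage had a peak, all 4 further genes of synthesis and reduction, both other Cyp26 genes and Rxrg. A peak is common by this rule, at 78.7% of protein-coding genes. Some of these genes had peaks in the flanks only. With the gene span alone, 13 of the 21 genes had a peak, beside 61.6% of protein-coding genes. Both genes without a peak were carriers, Crabp2 and Fabp5, short genes of 4.68 and 4.03 kb. The 6 co-regulator genes held 69 of the 116 peaks of the list, with 34 of them in Ncoa2, where genes of like length had a median of 9. The Ncoa2 peaks were low, with a median fold of 3.09, and covered 7.38% of the span. Ncoa1, of nearly the same length as Ncoa2, had 6 peaks.

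Of the germ cell targets, Stra8 had 4 peaks, 3 of them inside its 19.2 kb, and genes of like length had a median of 3. Its highest peak, on chromosome 6 from 34929432 to 34929684, had a fold of 4.24 and a −log10 q of 3.17. Rec8, a meiotic cohesin gene, had 5 peaks up to a fold of 4.60, with the highest 7.57 kb outside the gene. Meiosin, whose protein acts with STRA8, had 1 peak of fold 3.53, 8.45 kb outside.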

How the data were processed

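5hmC-Seal was run on 1 captured library, whose deposited broad peak list is the only file used. The submitters' processing notes name MACS2 2.1.0, a peak caller, Bowtie2 2.5.0, an aligner, and also deepTools 3.5.1, bedtools 2.27.1, Trim Galore and SAMtools 1.16.1, and give mm10 as build. What each did, with which settings and with or without a control, is not given in the sources used here. For each peak the deposited list gives a fold enrichment (a ratio), a −log10 p, a −log10 q and a score, all made by the authors; the score was not used. The lowest −log10 q is 1.01, so weak peaks are included.

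Gene spans and types came from RefSeq's GRCm38.p6 table. It holds 49997 genes. Those of the autosomes and of X and Y were used, 49603 in all, without 340 that start in the 3 Mb gap at a chromosome's beginning. Promoter windows came from RefSeq's table of the same build, and all 9 members matched by symbol. Of the 21 other retinoid genes 20 matched by symbol and 1, Meiosin, by synonym (Bhmg1). Peak starts were converted to positions counted from 1.

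Overlaps were computed with Python 3.11.15, pandas 2.3.3 and numpy 2.4.6, and intervals with scipy 1.17.1; the overlap code was tested on simulated peaks. Strong means a −log10 q of 5 or more. A repeat under stricter thresholds, other flanks, merged peaks and peak midpoints is given in the closing section. Named are all members, each member's highest and widest peak, its strong peaks, the 3 highest, the peakless and Stra8 among other retinoid genes, and the 3 nearest neighbours carrying a flank peak. Ring1, Cdc6, E030003E18Rik, the other co-regulators and germ cell targets, and the genes of 300 kb or more were added after their values were seen. The same holds for Gm46294. The members and lists were chosen with earlier results of these data known. Some genes of the retinoid list are not reported here. Depth is unknown, and no replicate exists.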

Additional observations from a re-analysis of the deposited data

How the results depend on the processing

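The threshold of the peak list decided most values. At a −log10 q of at least 3, 5 of the 9 members kept a peak, with 18 peaks in all, 13 of them in Rarb, beside 37.2% of protein-coding genes. The members' median fell to 0.0585 peaks per 10 kb and to 0% of the span covered, and 10 of the 21 other retinoid genes had a peak. At a −log10 q of at least 5, 3 members and 11 peaks were left, with medians of 0 peaks per 10 kb and 0% covered, and 1 of the 21 other genes; the protein-coding medians were 0 at both thresholds too. The covered shares of Rara, Rarg, Cyp26b1 and Rxrb therefore rest on peaks with a −log10 q under 3, and Rarb kept the most peaks at each threshold. The 1 Rxrb peak kept at both thresholds lay in the flank, on Ring1. The other settings moved these totals and medians by less than 1.5 times, but counts of some single genes by more. With the gene span alone Aldh1a1 had 1 peak, Crabp1 0, Rarg 4 and Rxrb 2, against 2, 5, 7 and 6 with flanks of 10 kb. With 5 kb Aldh1a1 had 1 and Crabp1 3, and with 20 kb Aldh1a2 had 5, against 3 with 10 kb, and Crabp1 8. With the gene span alone there were 57 peaks at 8 members, and with flanks of 5 and 20 kb there were 65 and 91 peaks. Peaks within 1 kb merged gave 76, and counting peak midpoints gave 75. The density median ran from 1.26 to 1.5 per 10 kb under these settings. Depth, replicate error and the share of cells behind a peak could not be estimated, and leaving out a replicate was not possible with 1 library.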

Other observations

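Rara and Rarb lie in related stretches of the genome that arose by duplication, each with a thyroid hormone receptor gene, a Rev-erb gene and a type II topoisomerase gene nearby. These neighbours were looked at after the values of Rara and Rarb were seen. On chromosome 14, Thrb, 381 kb long, had 4 peaks with a highest fold of 3.55 and 0.412% of its span covered, and no strong peak; genes of like length had a median of 10. Nr1d2, a Rev-erb gene of the circadian clock, had 4 peaks, 2 of them strong, and 19.3% of its span covered, with a peak of 5518 bp and fold 5.58. Top2b, next to Rarb, had no peak in its span and 2 in its flanks, of fold 5.63 and 2.92. The peak of fold 2.92 is the Rarb peak nearest to that gene's 3′ end and falls in both windows.

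On chromosome 11, Thra, 28.2 kb long, had 9 peaks and 14.4% of its span covered, with a highest fold of 4.19. Nr1d1, which overlaps Thra, was covered to 43.8%, and its window shares the peak of fold 4.19. Top2a had 4 peaks up to 3.82 and 6.61% covered. None of these chromosome 11 genes had a strong peak, as for Rara, and 2 of the 3 chromosome 14 genes had one, beside 16.3% of all protein-coding genes. These are values of 3 genes a side in 1 library, with no test.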
